A study of Rattus norvegicus with 4 samples.

Results

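The genes described here are 10 endothelial adhesion molecules, chemokines and feedback inhibitors of nuclear factor kappa B (NF-κB), chosen by symbol: Sele, Selp, Icam1, Icam2, Vcam1, Cx3cl1, Cxcl12, Cxcl1, Nfkbia and Tnfaip3. Of these, 8 had a row in the expression table, among 13261 genes used; Selp and Cxcl1 were not analysed here. The set was put together because Sele differed widely between animals, with its highest level 10.7 times its lowest, so the spread of Sele is a description without a test, and the question is which of the other 7 measured genes varied in the same way. RNA came from glomeruli, isolated with sieves from kidneys of male Wistar rats that weighed about 150 to 175 g. Wistar is an outbred stock. All 4 animals belonged to a single group and had received Adriamycin (ADR, doxorubicin), an anthracycline that injures podocytes, into a vein. No dose is given in the labels, and harvest is given as day 11 or day 21 without saying which applied to them. Control animals were not analysed here, so no value below has a direction relative to health.

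White cells leave the blood in steps. Selectins on activated endothelium, E-selectin (Sele) and P-selectin (Selp), slow the cell by binding its sugars; chemokines on the vessel wall then activate its integrins, and the immunoglobulin-family molecules Icam1, Icam2 and Vcam1 hold it. Sele, Icam1 and Vcam1 are known to be transcribed through NF-κB after tumour necrosis factor or interleukin-1, and Nfkbia (IκBα) and Tnfaip3 (A20) are targets of the same factor that switch it off again.

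Because several of these genes are known NF-κB targets, promoters holding letters like those of known NF-κB sites are shown first. A set of windows around RefSeq starts (build GRCr8), each of 300 bases from 250 before to 50 after the annotated start, held 8 of the 10 genes. It had no entry under the symbols Icam2 and Selp, which does not show that they lack an annotated start. In a search chosen after the values were known, the 9 letters GGNNNTTCC, read on either strand, occurred in 18.3% of the 33469 windows in the table and in 5 of the 7 windows of measured genes. The longer kB consensus, whose matches can overlap those of the 9 letters, occurred in 7.51% of all windows and in 3 of these 7. In the 4 windows below, written 5′ to 3′ on the strand of the gene, capitals mark each match to the 9 letters on either strand.
Tnfaip3, chr1:15543930-15544229, minus strand: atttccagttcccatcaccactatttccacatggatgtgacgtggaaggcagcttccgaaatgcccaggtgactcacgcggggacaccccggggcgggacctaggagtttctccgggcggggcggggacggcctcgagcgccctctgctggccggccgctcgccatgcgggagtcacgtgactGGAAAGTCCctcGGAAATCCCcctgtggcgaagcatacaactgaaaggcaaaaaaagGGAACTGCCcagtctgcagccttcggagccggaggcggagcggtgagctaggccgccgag
Nfkbia, chr6:78597023-78597322, minus strand: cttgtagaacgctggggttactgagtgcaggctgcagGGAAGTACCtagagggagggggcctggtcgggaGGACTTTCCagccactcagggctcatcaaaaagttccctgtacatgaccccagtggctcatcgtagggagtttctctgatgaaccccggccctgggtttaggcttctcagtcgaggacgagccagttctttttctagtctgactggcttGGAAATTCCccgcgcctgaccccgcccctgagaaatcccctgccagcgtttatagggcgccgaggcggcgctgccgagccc
Icam1, chr8:27829595-27829894, plus strand: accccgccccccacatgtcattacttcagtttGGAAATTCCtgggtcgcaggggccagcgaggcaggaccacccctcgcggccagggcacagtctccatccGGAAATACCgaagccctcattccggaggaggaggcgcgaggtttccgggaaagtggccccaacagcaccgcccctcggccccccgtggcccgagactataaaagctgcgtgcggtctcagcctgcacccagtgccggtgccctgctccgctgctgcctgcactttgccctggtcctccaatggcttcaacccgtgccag
Vcam1, chr2:206742734-206743033, minus strand: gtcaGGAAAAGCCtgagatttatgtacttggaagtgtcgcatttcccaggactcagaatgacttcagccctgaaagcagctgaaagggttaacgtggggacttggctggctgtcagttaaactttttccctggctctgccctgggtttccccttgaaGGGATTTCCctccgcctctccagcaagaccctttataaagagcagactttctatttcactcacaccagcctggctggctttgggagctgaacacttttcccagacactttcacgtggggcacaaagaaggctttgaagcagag
The kB consensus was found in Tnfaip3, 67 and 55 bases before the start, both read on the strand opposite to the letters shown, and once more 170 bases before it, where it overlaps no capitals. It was found in Nfkbia 31 bases before the start, on the opposite strand too, and in Vcam1 93 bases before it. The Icam1 window held 2 matches to the 9 letters, 218 and 149 bases before the start, and none to the consensus. The windows of Sele and Cxcl12 held neither motif; the Sele window surrounds an annotated start that may not be the main transcription start. A match is a run of letters and not a binding site, and its absence says only that these letters are not in that window.

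Sequencing depth was similar in the 4 libraries, at 13566962, 16207027, 15348629 and 15244063 reads in the listed genes for replicates 1 to 4. Values are CPM (counts scaled to the same library total), which are not corrected for transcript length, so levels are compared between animals and not between genes. The share of reads in mitochondrial protein-coding genes was 7.46%, 12.5%, 9.34% and 7.56%. The first principal component, with 54.6% of the variance, set replicate 1 (loading 0.78) against replicates 2 and 3 (-0.44 each). Defining podocyte and endothelial genes were abundant in every library; Nphs1 (nephrin) had at least 14645 reads and Kdr (the main vascular endothelial growth factor receptor) at least 21730. Fewer cells of a type and less RNA per cell cannot be told apart in such bulk samples.

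Sele, the selectin made only by activated endothelium, was the most variable gene of the set. It was counted 57 times in replicate 1, 136 times in replicate 2, 250 times in replicate 3 and 690 times in replicate 4, or 4.24, 8.42, 16.3 and 45.3 CPM. Every animal thus stood apart from the next by a factor of 1.94 to 2.78. The 95% Wilson intervals, which cover counting error only, ran from 3.24 to 5.44 CPM in replicate 1 and from 42.0 to 48.8 CPM in replicate 4, and no neighbouring pair overlapped. The highest level was 10.7 times the lowest, the mean was 18.6 ± 18.5 CPM (SD, n = 4), and 99.8% of all genes had a smaller SD on the log2 scale. The ratio of highest to lowest was 5.38 without replicate 1 and 3.85 without replicate 4.

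Icam1, the counter-receptor of the β2 integrins LFA-1 and Mac-1, followed Sele in order but not in size. Its level was 76.1, 78.9, 93.5 and 156 CPM in replicates 1 to 4. Replicate 4 stood well above the other 3, while replicates 1 and 2 differed by less than counting error. The highest level was 2.05 times the lowest, with a mean of 101 ± 37.5 CPM (SD, n = 4). Without replicate 4 that ratio was 1.23, so the spread of Icam1 rested on that animal.

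Vcam1, the ligand of the integrin VLA-4 of monocytes and lymphocytes, had the widest spread after Sele. It was present at 41.6, 28.6, 50.3 and 109 CPM in replicates 1 to 4. Replicate 4 was again the highest, 2.16 times above replicate 3, but the lowest animal was replicate 2 and not replicate 1. The ratio of highest to lowest was 3.80, the mean was 57.3 ± 35.4 CPM (SD, n = 4), and 98.97% of genes had a smaller SD. Without replicate 4 the ratio was 1.76.

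Icam2 is carried constitutively by resting endothelium. Its 107.6, 137 and 154 CPM in replicates 1, 2 and 3 were followed by 128 CPM in replicate 4. The animal with by far the most Sele therefore did not have the most Icam2, and its level and that of replicate 2 had overlapping counting intervals. The whole range was 1.43-fold around a mean of 132 ± 19.4 CPM (SD, n = 4).

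**Figure D1:**
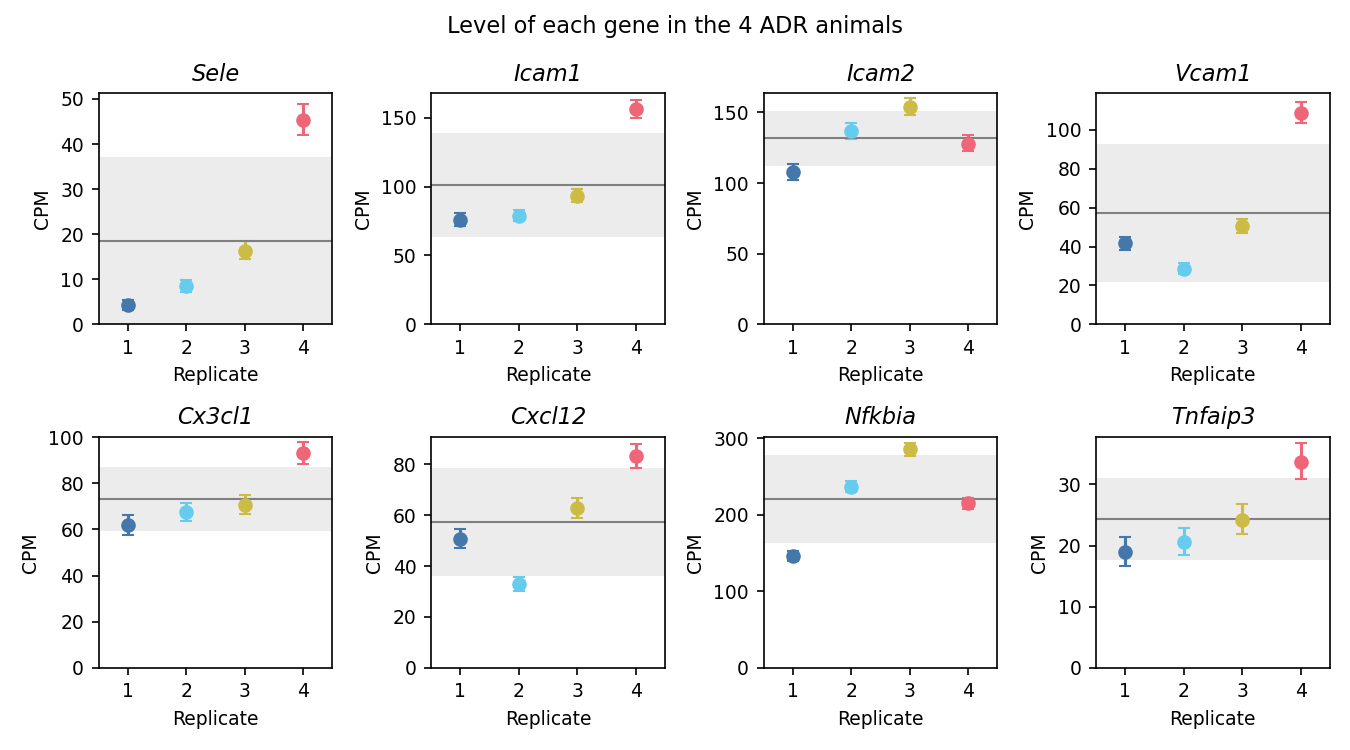
CPM of the 8 measured genes in each of the 4 ADR animals; points are single libraries with 95% Wilson counting intervals, the grey line is the mean and the grey band the mean ± SD, and each vertical axis starts at 0 and has its own scale. Replicate 4 is the highest in 6 panels (Sele, Icam1, Vcam1, Cx3cl1, Cxcl12, Tnfaip3), and replicate 3 in those of Icam2 and Nfkbia.

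Both measured chemokines of the set were also highest in replicate 4. Cx3cl1 (fractalkine), a membrane-bound chemokine that captures cells bearing Cx3cr1, was at 61.8, 67.4, 70.6 and 93.1 CPM. Its animals came in the order seen for Sele, yet neighbours among replicates 1, 2 and 3 had overlapping counting intervals, so that only replicate 4 stood apart. The range was 1.51-fold and the mean 73.2 ± 13.7 CPM (SD, n = 4).

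Cxcl12 (stromal cell-derived factor 1), the ligand of Cxcr4, which podocytes as well as stromal cells are known to make, was at 50.7, 32.9, 62.8 and 83.1 CPM in replicates 1 to 4. As for Vcam1, replicate 2 was lowest and replicate 4 highest. The range was 2.53-fold, and it was 1.64-fold without replicate 2.

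The 2 feedback inhibitors did not move alike. Tnfaip3, the ubiquitin-editing enzyme A20, was at 18.9, 20.6, 24.2 and 33.7 CPM in replicates 1 to 4, the order of Sele, with a 1.79-fold range. Neighbours among the first 3 again overlapped within counting error. Nfkbia, the inhibitor that holds NF-κB in the cytoplasm, was at 145 CPM in replicate 1 and at 237, 285 and 215 CPM in replicates 2 to 4. Its low animal was replicate 1 and its high animal replicate 3, a 1.96-fold range that shrank to 1.33-fold without replicate 1.

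Of the 7 measured genes other than Sele, 3 (Icam1, Cx3cl1 and Tnfaip3) had the 4 animals in the order of Sele, against 4.03% of all genes. The same 3 were lowest in replicate 1 and highest in replicate 4, as were 6.6% of all genes. The number highest in replicate 4 was 5 of 7, against 21.4% of all genes, and the number lowest in replicate 1 was 5 of 7, against 35%. At least 2-fold more in replicate 4 than in replicate 1 was seen for 2, Icam1 and Vcam1, against 1.27% of all genes; none was 2-fold lower, against 0.664%. All 7 were higher in replicate 4 than in replicate 1 by some amount, as were 56.1% of all genes. These shares describe 4 animals and a set chosen with earlier results known, and carry no test. With 3 animals an order is shared more easily. Without replicate 1, and also without replicate 2, 5 genes had the order of Sele (Icam1, Vcam1, Cx3cl1, Cxcl12 and Tnfaip3), against 23.8% and 14.8% of all genes. Without replicate 3 the number was 3, against 15.4%, and without replicate 4 it was 5 (Icam1, Icam2, Cx3cl1, Nfkbia and Tnfaip3), against 23.5%.

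**Figure D2:**
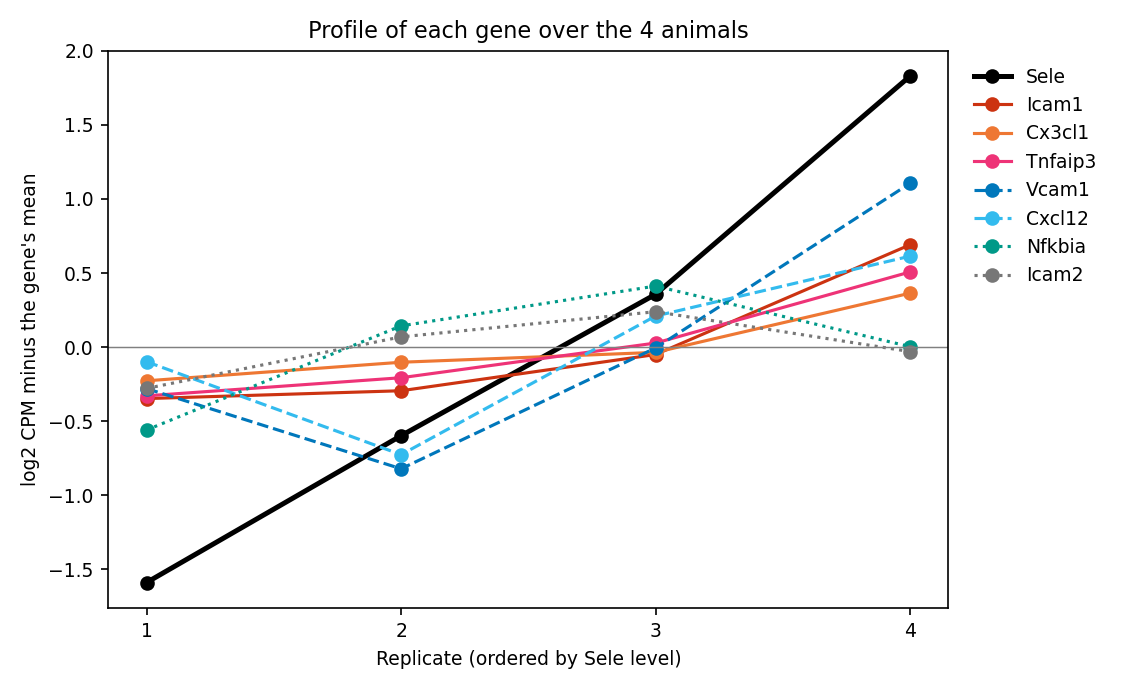
Log2 CPM of each gene minus its own mean over the 4 ADR animals, plotted by replicate; solid lines mark genes in the animal order of Sele, dashed lines Vcam1 and Cxcl12, dotted lines Nfkbia and Icam2. Sele spans from -1.59 to 1.83, and the dotted lines peak at replicate 3.

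Likeness between the 8 profiles was measured by the root mean square difference between log2 levels centred on each gene's mean. The closest pairs were Cx3cl1 with Tnfaip3, at 0.11, and Icam1 with Tnfaip3, at 0.11. Icam2 and Nfkbia differed by 0.17, and Icam1 and Cx3cl1 by 0.20. Cxcl12 was about as far from Icam1, at 0.28, as from Vcam1, at 0.29. Sele was nearest to Vcam1, at 0.78, and farthest from Icam2, at 1.19. The measure takes in the size of a spread as well as its pattern, so a gene with little spread lies far from Sele whatever its order. Icam1, Tnfaip3 and Cx3cl1, which had the order of Sele, were at 0.88, 0.95 and 1.05 from it, farther than Vcam1, which had not.

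A ratio of highest to lowest of at least 2 was found for Icam1, Vcam1 and Cxcl12, 3 of the 7, against 9.05% of all genes, whose median ratio was 1.32. Without replicate 4 the number was 0, against 7.84% of all genes. Spread beyond counting error was detected for 7 of 7, but also for 69.5% of all genes (chi-square test on recovered reads, adjusted over all genes), so passing this test is common. Limma's test of whether a gene varied more than genes of like abundance called 0 of the 7 and 0% of all genes after Benjamini-Hochberg adjustment. At an unadjusted p under 0.05 it passed Icam1, Vcam1, Cxcl12 and Nfkbia, 4 of 7, against 5.47% of all genes. The adjusted limma p was 0.912 for each of these 4. No gene had a smaller one, so the absence of calls does not set these 7 apart from other genes. The unadjusted number was 2 of the 7 without replicate 4, beside 695 of 13261 genes, and 3 of the 7 without replicate 1, 2 or 3, beside 709, 693 and 661 genes.

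Since most of these genes are read as endothelial, they were set beside 13 of 14 endothelial marker genes in the table, which between them took 7445, 8792, 9829 and 8175 CPM in replicates 1 to 4. That sum was 1.10 times as high in replicate 4 as in replicate 1, far less than the difference in Sele. Of the 13, 10 were higher in replicate 4 than in replicate 1, beside 56.1% of all genes. None of the 13 had the animal order of Sele, against 4.03% of all genes, and 0 of 13 were highest in replicate 4, against 21.4%. Eng (endoglin) was 1.27 times as high in replicate 4 as in replicate 1, and Vwf (von Willebrand factor, stored with P-selectin in Weibel-Palade bodies) was at 21.4, 18.8, 19.7 and 11.9 CPM, lowest where Sele was highest.

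Expressed relative to the mean log2 level of these markers, Sele kept its order and a 10.4-fold range. Icam2, by contrast, was nearly level, with a range of 1.15-fold, and Nfkbia had one of 1.54-fold. Vcam1, Cxcl12, Icam1, Tnfaip3 and Cx3cl1 ranged 4.42-fold, 2.94-fold, 2.30-fold, 1.91-fold and 1.63-fold. On this scale 6 of the 7 were highest in replicate 4, all but Nfkbia, as were 38.3% of all genes. Replicate 1 was no longer the lowest animal for Icam1, Cx3cl1 and Tnfaip3, so that of the 7 the full order of Sele was shared by Icam2 alone, against 3.06% of all genes. The order of Icam2, and its highest animal, rested on a small step, from a relative log2 level of -1.41 in replicate 3 to -1.37 in replicate 4. Counting error was not computed on this scale. The excess in replicate 4 was thus common to both scales for 5 genes, whereas the order of the other 3 animals was not.

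**Figure D3:**
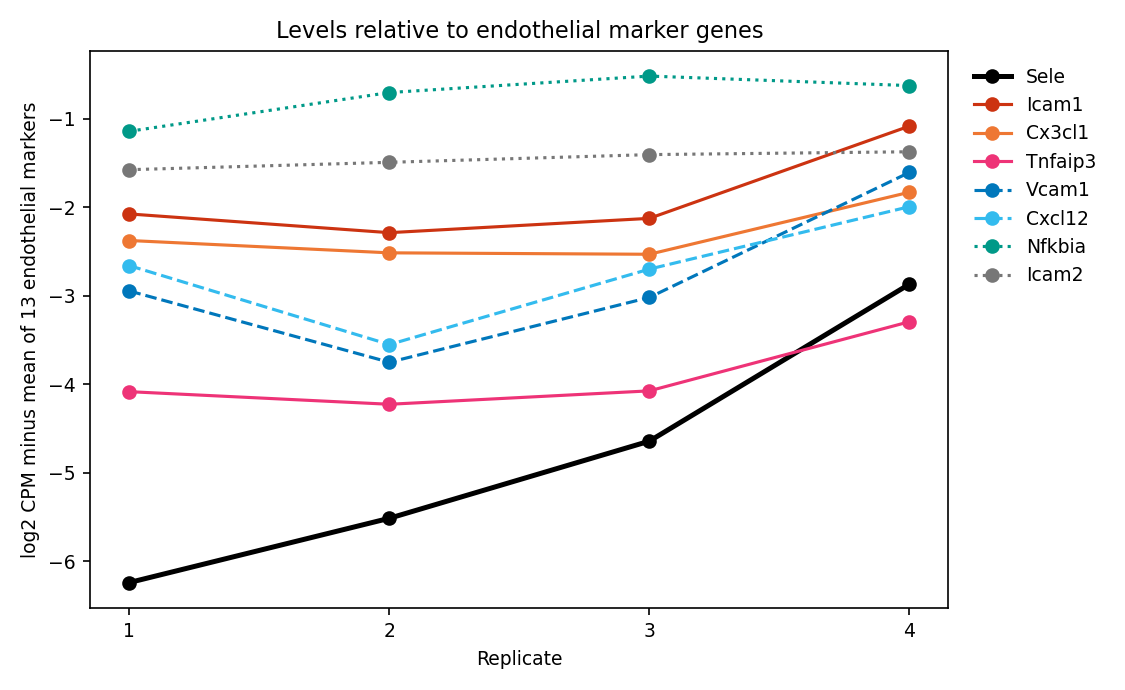
Log2 CPM of each gene minus the mean log2 CPM of 13 endothelial marker genes, by replicate of the ADR group; higher means more transcript per endothelial marker transcript. Sele spans from -6.24 to -2.87, Icam2 only from -1.58 to -1.37, and replicate 4 is the highest for all genes drawn except Nfkbia.

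Genes upstream of the set were looked at next. All 15 NF-κB components were in the table, and 11 were higher in replicate 4 than in replicate 1, with a median log2 difference of 0.22, against 56.1% and 0.04 for all genes. Rela, Nfkb2 and Traf2, 3 of the 15, had the order of Sele, against 4.03% of all genes. Here and in the lists below that order can include steps within counting error; Traf2 was at 41.9 and 44.1 CPM and Rela at 119 and 124 CPM in replicates 2 and 3. The most positive difference was that of the coactivator Bcl3, at 10.4, 28.0, 20.7 and 26.5 CPM in replicates 1 to 4, low in replicate 1 only; the most negative was that of Ikbkg (NEMO), at 0.886 times.

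Of the cytokines and receptors that act on NF-κB, 10 of 15 were in the table and 9 were higher in replicate 4 than in replicate 1, with a median log2 difference of 0.44, again beside 56.1% and 0.04 for all genes. Il1b, which induces Sele in cultured endothelium, was at 3.28, 4.84, 12.8 and 9.54 CPM, so that the 2 animals with the most Sele also had the most Il1b, in the reverse order. Il1rap, the accessory chain of its receptor, was 0.979 times as high in replicate 4 as in replicate 1. Tnf, Il1a and Il6 were not analysed here.

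Other genes known to be induced by NF-κB were mixed. Of 15 measured, 11 were higher in replicate 4 than in replicate 1 (56.1% of all genes were), the median difference was 0.20, and 9 were highest in replicate 4, against 21.4% of all genes. Nfkbiz, an atypical inhibitor family member, was at 11.1, 23.8, 16.9 and 25.5 CPM. Traf1 was lowest in replicate 4, at 3.05 CPM against 4.02 CPM in replicate 1. The inhibitors of apoptosis Birc2 and Birc3, 2 of the 15, had the order of Sele, against 4.03% of all genes. Limma called 0 genes of these 3 lists after adjustment; at an unadjusted p under 0.05 it passed 1 of 15 components, 2 of 10 upstream genes and 3 of 15 induced genes, against 5.47% of all genes.

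Of 21 other chemokines, 5 were in the table and 5 of 5 were higher in replicate 4 than in replicate 1, beside 56.1% of all genes. Cxcl13, which attracts B cells, was at 28.6, 46.0, 48.4 and 74.3 CPM in replicates 1 to 4, the order of Sele. Cxcl16 was level, at 141, 132, 141 and 142 CPM. Ccl5, Cxcl10 and Cxcl11 lay between them in this difference. A list of 12 adhesion and junction genes repeated the endothelial markers Esam, Cdh5 and Vwf and the podocyte marker Podxl. Among the 12, 7 were higher in replicate 4 than in replicate 1, near the 56.1% of all genes, and the median difference was 0.17. Mcam (CD146), 1 of the 12, had the order of Sele, against 4.03% of all genes.

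**Figure D4:**
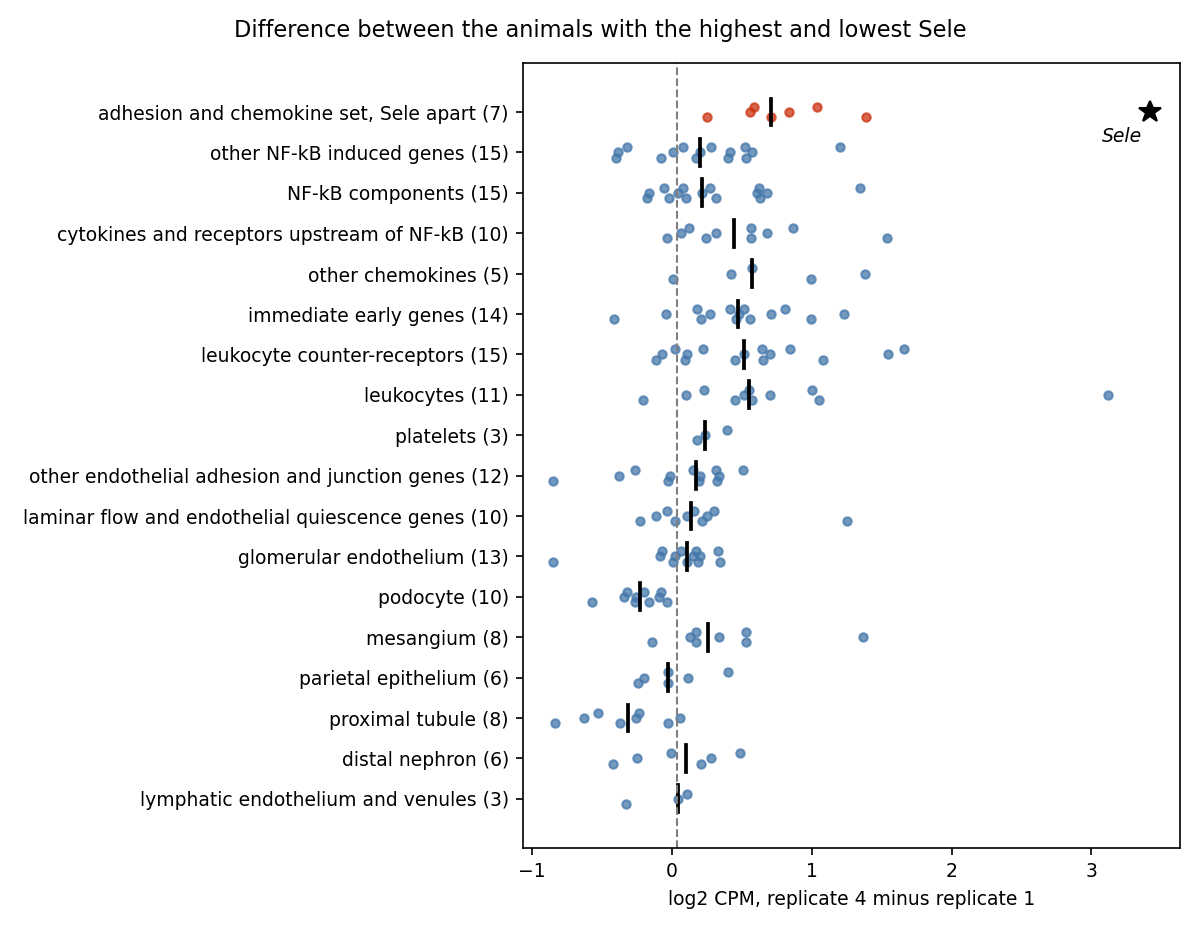
Log2 CPM in replicate 4 minus replicate 1, the animals with the highest and lowest Sele, for each gene (points) of 18 groups, with the number measured in brackets; black bars are group medians, the dashed line the median of all genes at 0.04 and the star Sele at 3.42. All 7 other genes of the adhesion and chemokine set lie to the right of 0, with a median of 0.71.

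Genes listed as partners on the leukocyte side were measured too, though reads of bulk samples do not show which cells they came from. Itgam and Itgb2 are also among the leukocyte markers below. Of 15 counter-receptor genes, 13 were higher in replicate 4 than in replicate 1, beside 56.1% of all genes, with a median log2 difference of 0.52. Cxcr4, the receptor of Cxcl12, was at 6.45, 11.6, 19.1 and 13.6 CPM, lowest in replicate 1 and highest in replicate 3, unlike its ligand. Cx3cr1, the receptor of fractalkine, was at 9.25, 8.92, 9.87 and 8.56 CPM and did not follow its ligand. The full order of Sele was found for 0 of the 15, against 4.03% of all genes, and 3 of the 15 were highest in replicate 4, against 21.4%.

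Leukocyte markers were mostly lowest where Sele was lowest, but mostly not highest where Sele was highest. The 11 measured of 12 took 1122, 1447, 1479 and 1364 CPM in replicates 1 to 4, a 1.32-fold range with replicate 1 lowest. Cd74 made up much of that sum; the other 10 took 468, 670, 863 and 798 CPM, a 1.84-fold range. The median log2 difference between replicates 4 and 1 was 0.55, 4 of 11 had a ratio of highest to lowest of at least 2, against 9.05% of all genes, and 10 of 11 were higher in replicate 4 than in replicate 1, beside 56.1% of all genes. Limma called 0 of 11 after adjustment and passed 4 of 11 at an unadjusted p under 0.05, against 5.47% of all genes. Lyz2 and S100a9, 2 of the 11, had the order of Sele, against 4.03% of all genes. Only these 2 of the 11 were highest in replicate 4, against 21.4% of all genes. The commonest order, in 5 of the 11, put replicate 3 highest and replicate 4 next. Cd74 was lower in replicate 4, at 0.866 times its level in replicate 1. Of 8 platelet genes, 3 were measured, Pf4, Itga2b and Gp9, with sums from 17.0 to 24.2 CPM. The part of these cells in the spread of Sele and its set was not tested.

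The genes with profiles most like that of Sele were sought among 11178 genes with a unique symbol and a mean of at least 100 reads, by the root mean square difference of centred log2 levels over the 4 animals. S100a9, a calcium-binding protein abundant in neutrophils and monocytes, came first at 0.38. It was counted 33, 67, 231 and 326 times in replicates 1 to 4, or at 2.47, 4.16, 15.1 and 21.4 CPM, an 8.67-fold difference between replicates 4 and 1.

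Nptx2, a secreted pentraxin, came next at 0.55, with 4.39, 13.05, 42.8 and 46.7 CPM. Chi3l1, a chitinase-like protein secreted by activated macrophages and neutrophils among other cells, followed at 0.56, with 1.81, 5.89, 12.9 and 13.7 CPM. The small nucleolar RNA SNORD29 was at 0.5996 and Lrg1, a secreted glycoprotein of neutrophils, liver and activated endothelium, at 0.60, both highest in replicate 3. All 5 had the lowest level in replicate 1, beside 35% of all genes, but their choice for nearness to Sele favours that outcome. Of the set itself, Vcam1 ranked 12 and Icam1 31 by this measure, Tnfaip3 71, Cxcl12 86, Cx3cl1 233, Nfkbia 650 and Icam2 2244. These ranks depend on the size of each spread as well as on its pattern.

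**Figure D5:**
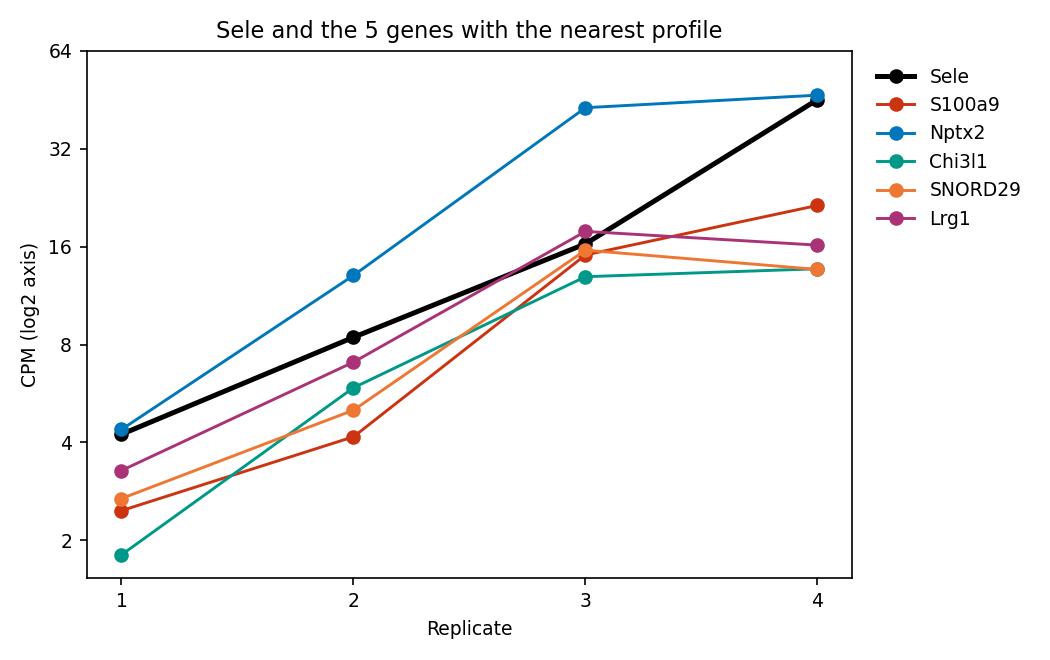
CPM on a log2 axis of Sele (black) and the 5 genes nearest to it in profile, by replicate of the ADR group; each point is a library. Sele goes from 4.24 to 45.3 CPM, S100a9 from 2.47 to 21.4 CPM, and the step from replicate 3 to replicate 4 is larger for Sele than for the others.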

How the data were processed

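Poly(A) RNA was measured in glomeruli of 4 ADR-treated rats (1 group; total RNA with an integrity number above 7; replicate numbers follow accession order and are names only; nothing more than the listing as separate samples says that they are separate animals). The submitters' processing notes name HISAT2, featureCounts of Subread, limma and the build Rnor_6.0; settings, annotation and use of strand are not given in the sources used here. The deposited values are log2 values; 2 raised to each was a whole number of reads plus 0.5 (within 0.01 reads for 100% of values) times a constant of the library, that is, log2 CPM. Of 13265 rows, 4 with displaced cells were left out, and 116 rows share a symbol and were not used under it. The lowest count of any gene in any library was 2, so low genes had been removed before deposit.

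Read counts were recovered and tested against Poisson sampling (chi-square, 3 degrees of freedom, scipy 1.17.1). An intercept-only limma fit (3.58.1, R 4.3.3) of log2(CPM + 1) compared residual variance with the abundance trend (F test). Both were adjusted over all genes by Benjamini-Hochberg at 0.05. P-values measure only the spread between these samples. The file holds log2 values, so the chi-square test ran on recovered reads as the design allowed. Data were simulated for 13261 genes, all with a CV (SD over mean) of 0.11 between animals. At each size, 50 genes were changed in 1 library. Limma's test called 0% of those changed 2-fold and 96% of those changed 4-fold. Real genes differ in their spread, and Vcam1, with a 3.80-fold range, had an adjusted limma p of 0.912, the smallest over all genes. The simulated 96% therefore does not tell how large a change this test could call in the real data. Genes beyond the set were named by a rule: the 5 nearest to Sele in profile, and the highest and lowest of each list by the difference between replicates 4 and 1; others named for sharing the order of Sele, for a 2-fold difference, or as tissue markers, receptors or missing ligands were chosen after their values were seen. Not every gene meeting the rule is reported here. Members and lists were chosen with earlier results of these data known. Alternatives were 3 other scalings, endothelial markers as reference, each replicate left out, other pseudocounts, a robust prior and a filter on low values.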

Additional observations from a re-analysis of the deposited data

How the results depend on the processing

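Of 192 recomputed values, 174 stayed within their criterion, including 56 of 56 mean levels, which leaving out 1 of 4 animals can hardly move by more than an SD. Relative to endothelial markers, 1 gene in place of 3 was lowest and highest in the same animals as Sele, and 1 in place of 3 had its order (Icam2 in both), against 6.70% and 3.06% of all genes. Leaving out each replicate in turn gave 3 to 5 genes with Sele's lowest and highest animals, 3 to 5 with its order (the measurement of order and of the highest animal was added after the data were seen, with all its alternatives), and 0 to 3 with a ratio of at least 2; the 0 was without replicate 4. Under median-of-ratios and upper-quartile factors and without mitochondrial genes in the total, the same 3 genes shared the order of Sele. The limma test called 0 genes of the set under the 3 other scalings, the other pseudocounts, the robust prior, the filter and without each replicate; it was not run relative to endothelial markers. Among single ratios, 9 of 64 shifted by over 1 SD of that gene's log2 level. Nfkbia passed a ratio of 2 with mitochondrial genes out of the total, which made 4 genes. Of the 5 genes nearest to Sele, 4 were kept with absolute differences. No paired analysis was possible because there is a single group. Within the set, depth limits Sele most, with 57 reads in replicate 1. The cause of these shifts was not tested.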

Other observations

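Values of further gene groups follow. All 10 podocyte genes came in the same order, lowest in replicate 2 and highest in replicate 1, an order found for 9.44% of all genes; their summed level was 12768, 7360, 9570 and 11565 CPM in replicates 1 to 4. Replicate 2 was thus the lowest animal for podocyte genes as well as for Vcam1 and Cxcl12, but Vcam1 and Cxcl12 were highest in replicate 4. Of the 8 mesangial genes, Pdgfrb (a platelet-derived growth factor receptor) had the order of Vcam1 and Cxcl12, at 454, 308, 505 and 512 CPM. Itga8 and Gata3 were also lowest in replicate 2 and highest in replicate 4. The part of podocytes and mesangial cells in the levels of Vcam1 and Cxcl12 was not tested. Magi2, a scaffold protein of the slit diaphragm, was at 47.0, 10.2, 21.1 and 31.7 CPM. The 8 proximal tubule genes took 6601, 4715, 3288 and 5087 CPM, lowest in replicate 3, with a median log2 difference between replicates 4 and 1 of -0.31.

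Of 14 immediate early genes, which cells switch on soon after a stimulus, 12 were higher in replicate 4 than in replicate 1, beside 56.1% of all genes, with a median log2 difference of 0.47. Junb had the order of Sele, 1 of 14 against 4.03% of all genes. Fos was at 13.6, 22.7, 39.8 and 31.9 CPM, highest in replicate 3 as Nfkbia was, and Fosl1 was at 0.75 times its replicate 1 level in replicate 4. Of 10 genes of laminar flow and endothelial quiescence, Edn1 (endothelin-1) differed most, at 18.1, 35.2, 52.6 and 43.2 CPM, and Thbd (thrombomodulin) was 0.856 times as high in replicate 4 as in replicate 1.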
